A study of Mus musculus with 6 samples.

Results

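Collagen chain genes were taken as every row of the gene table whose symbol is Col, a number, the letter a and a number, which gave 44 of 34745 genes. They were examined in bulk RNA of the dorsal striatum, the dorsal part of the main input nucleus of the basal ganglia. Libraries came from 3 Ash1l heterozygous (Ash1l het) and 3 wild type (WT) samples of C57BL/6 mice aged 1 year. Ash1l encodes a histone H3 lysine 36 methyltransferase; the sources used here do not state which mutation the heterozygotes carry, nor whether each sample is a separate animal. The p-values therefore measure the spread between these samples, which may be technical.

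Collagens are secreted or membrane-bound proteins in which 3 chains wind into a triple helix, and this requires glycine at the start of each 3-residue repeat. In the brain the bulk of collagen lies around blood vessels, where collagen IV forms the sheet of the basement membrane and collagens XV and XVIII anchor it to neighbouring matrix. Fibrillar collagens I, III and V are made mainly by fibroblasts of meninges and vessel walls, and a few chains, among them those of collagens XIX and XXV, are made by neurons. In bulk tissue, fewer cells of a type and less RNA per cell cannot be told apart.

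The helical repeat is visible in the coding sequence, and it is shown for the 3 chains with the smallest p-values below and for the main basement membrane chain. Each line is 1 coding exon of 54 bases from the GENCODE M21 transcripts (GRCm38), printed 5′ to 3′ on the coding strand with the glycine codons in capitals. The exons lie on the minus strand at chr9:105918186-105918239 (exon 13 of Col6a5), chr15:97998545-97998598 (exon 6 of Col2a1), chr1:24461476-24461529 (exon 12 of Col19a1) and chr8:11245211-11245264 (exon 7 of Col4a1).
Col6a5: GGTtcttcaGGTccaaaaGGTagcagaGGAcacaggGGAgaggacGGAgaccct
Col2a1: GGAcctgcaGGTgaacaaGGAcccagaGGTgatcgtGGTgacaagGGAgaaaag
Col19a1: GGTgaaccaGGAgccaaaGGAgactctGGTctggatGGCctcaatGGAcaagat
Col4a1: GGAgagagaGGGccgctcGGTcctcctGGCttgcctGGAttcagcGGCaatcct

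The classes differed in how the repeat is laid out. Fibrillar chains of collagens I, III and V held one long helix, with a longest unbroken run of 337 to 344 glycine-led triplets, and 41.2% to 47.1% of their coding exons were exactly 54 bases long. Collagen IV chains held more triplets in all, 426 to 444, but in runs of at most 39 to 66 triplets separated by 22 to 26 breaks. Collagen VI chains were short-helix proteins with 107 to 110 triplets. The neuronal chains lay between, with 230 triplets in Col19a1 and 158 in Col25a1.

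Several members are neighbours in the genome. Col4a1 and Col4a2 (chromosome 8) are transcribed head to head and their annotated genes overlap by 22 bases, at chr8:11312805-11312826, so each starts inside the other. These bases, which both genes share at their starts, are printed on the plus strand with a match to the motif GGGCGG in capitals.
Col4a1 and Col4a2: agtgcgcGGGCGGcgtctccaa
GGGCGG, a GC box, was present on either strand in 23 of 38 RefSeq promoter windows (GRCm38.p6, 300 bases) of 35 members, 60.5%, against 35.7% of all 32851 windows. The windows are not all separate. Those of Col4a1 and Col4a2 overlap and both hold the printed match, and the windows of Col6a2 overlap each other. Overlapping windows were kept in both percentages. TATAAA was in 13.2% of the members' windows and 13.6% of all, and CCAAT in 34.2% and 37.4%. A match is a description of letters and no evidence of binding. Col4a3 and Col4a4 are also head to head, 71 bases apart, and so are Col4a5 and Col4a6, 1308 bases apart. Col6a4, Col6a5 and Col6a6 stand in a row on chromosome 9, with gaps of 28810 and 27917 bases in GENCODE M21.

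Library totals ran from 12080663 to 18798694 counts. Ash1l itself stood at 281, 198 and 253 CPM in heterozygotes, against 308, 295 and 293 CPM in wild type, all 3 Ash1l het libraries lying below all WT libraries (log2 fold change -0.29, SE 0.13, edgeR adjusted p = 0.858). CPM here are counts scaled to library size with TMM factors. The protocol describes male mice, but Xist lay between 1956 and 2957 CPM in all 6 libraries, and 4 Y-linked genes had together at most 1 count in a library. Ash1l het replicates 1 and 2 stood apart on the first principal component, at -28.1 and -28.5, with the other libraries between 4.18 and 23.8. All 10 markers of spiny projection neurons, the principal striatal neurons, passed the count filter.

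Collagen RNA was low in the striatum and was carried by a few chains. Levels of different genes are compared per length, as the deposited FPKM (fragments scaled by gene length and library size). The implied length was 16209 bases for Col1a2, with 1372 coding codons, and 13902 bases for Col25a1, with 666. Ranks by FPKM therefore depend on the gene model, and whether these lengths match the RNA present was not tested. Of the 44 members, 7 had a mean of at least 1 FPKM and 10 were under 0.1 FPKM. Col6a1, the α1 chain of the microfibril-forming collagen VI, was highest at 19.8 ± 0.376 FPKM in WT (SD, n = 3). Col4a2 followed at 4.33 ± 0.351, then Col11a2, a chain of fibrillar collagen XI, at 3.62 ± 0.501, Col4a1 at 3.17 ± 0.198, Col6a2 at 2.13 ± 0.292, Col6a4 at 1.88 ± 0.632 and Col25a1 at 1.72 ± 1.09 FPKM. The most familiar fibrillar chains were far lower, with Col1a1 at 0.380 ± 0.0732 FPKM and Col3a1 at 0.110 ± 0.0207 FPKM in WT. Counts of all members together made up 316 to 359 CPM in WT and 333 to 363 CPM in Ash1l het, ranges that overlap.

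**Figure D1:**
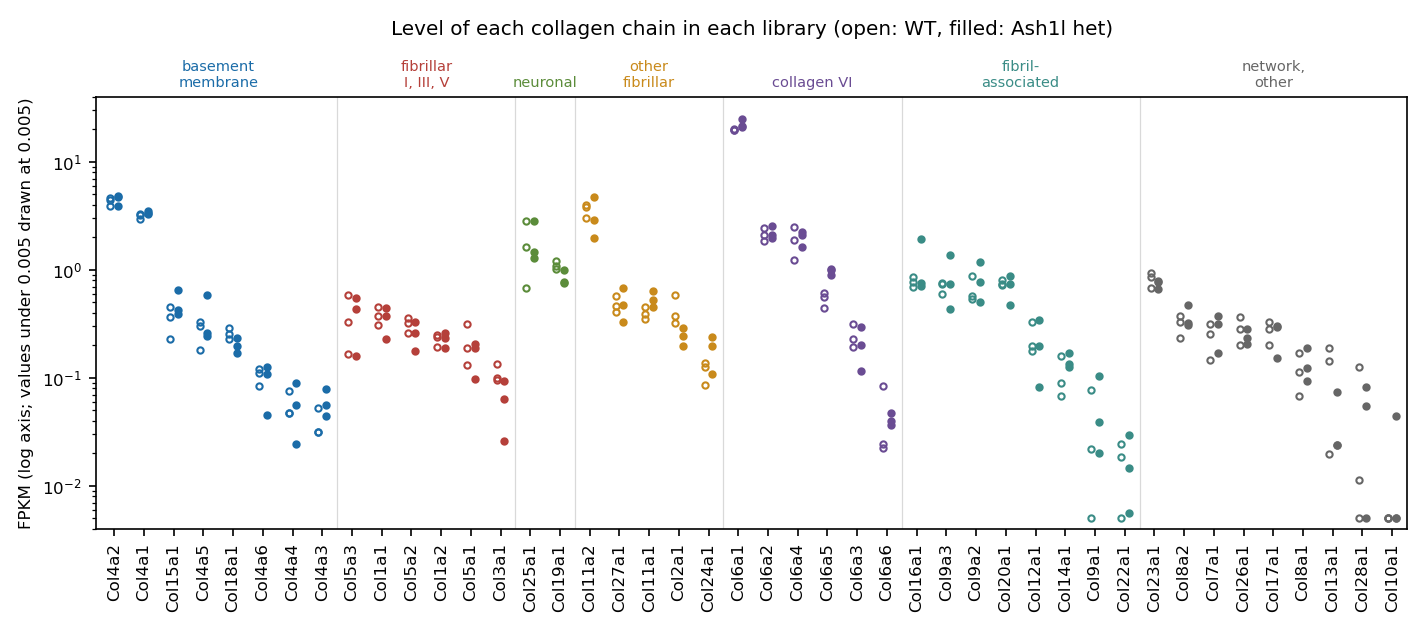
FPKM of the 44 collagen chains (log axis) in each of 3 WT (open) and 3 Ash1l het (filled) libraries, grouped by class and ordered by mean level. Col6a1 stands alone near 20 FPKM, and for most chains the open and filled points overlap.

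The comparison of Ash1l het with WT called no collagen chain. The count filter passed 35 members and left 9 out. Of the 35, 0 had an edgeR quasi-likelihood adjusted p under 0.05, where 2 of 15267 genes tested did (0.0131%). The smallest adjusted p among members was 0.690, and their median log2 fold change was 0.0083, against 0.0063 over all genes tested. At an unadjusted p under 0.05, 1 member was higher in Ash1l het, Col6a5 (2.86% of the 35, against 3.1% of all genes), and 2 were lower, Col2a1 and Col19a1 (5.71%, against 2.67%). All Ash1l het libraries lay above all WT libraries for 1 member (2.86%, against 6.18% of all genes) and below them for 4 (11.4%, against 5.53%). Those 4, by CPM, were Col2a1, Col3a1, Col18a1 and Col19a1, of which Col18a1 overlapped between genotypes by FPKM. DESeq2 called 0 members as well and the exact test of edgeR called 1, Col6a5, among the 0.269% of genes it called.

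**Figure D2:**
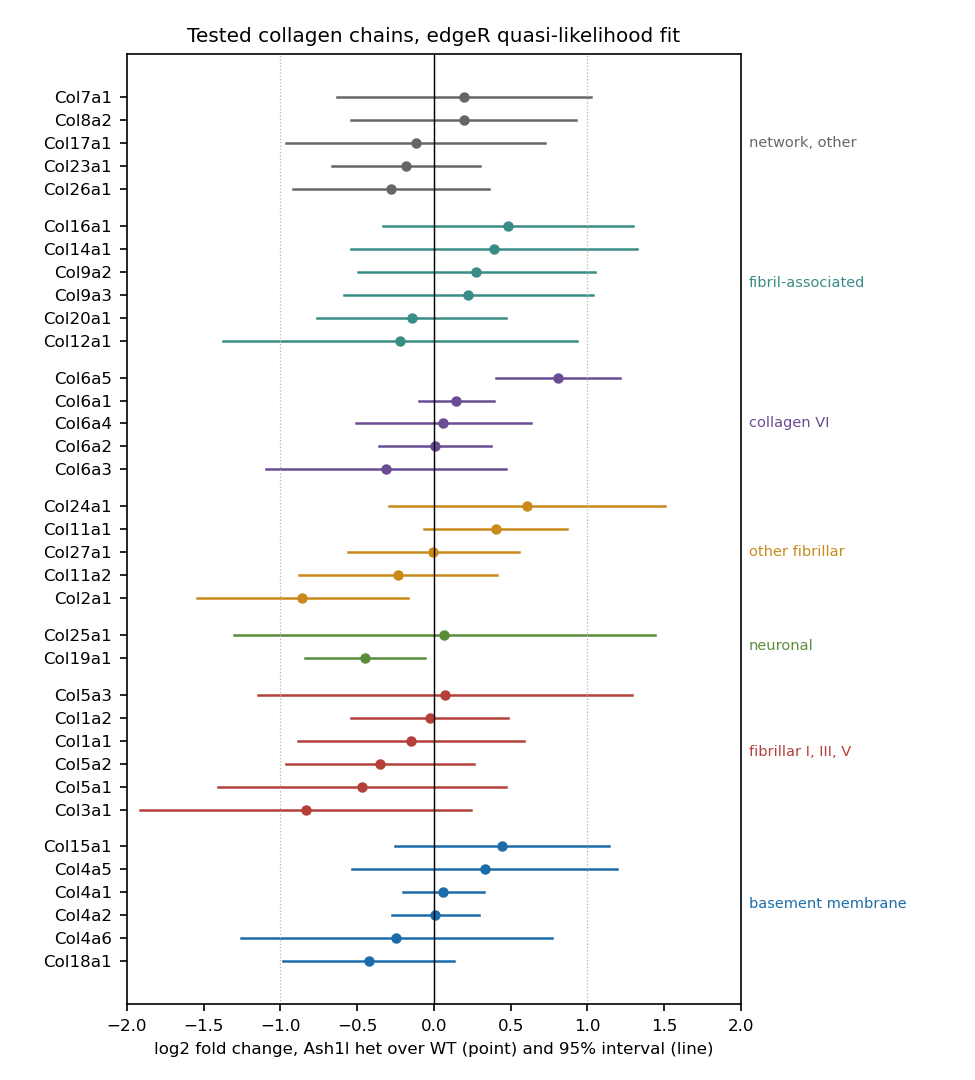
Log2 fold change of Ash1l het over WT with its 95% interval for the 35 tested chains, by class, with dotted lines at a 2-fold change either way. The interval excludes 0 for Col6a5 on the higher side and for Col2a1 and Col19a1 on the lower side, and none of the 3 passed after adjustment.

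Precision differed widely between chains. The 95% interval of the fold change lay within 2-fold either way for 18 of the 35 tested members and within 1.5-fold for 6. The fitted change was smaller than its own SE in 23 of 35. For chains of a few CPM, such as Col5a3 or Col24a1, a 2-fold rise lay inside the interval.

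The main basement membrane chains, Col4a1 and Col4a2, differed little between the genotypes. Col4a1, the main α1 chain of collagen IV in vessel walls, stood at 23.1, 22.3 and 25.4 CPM in heterozygotes, against 23.3, 21.5 and 23.1 CPM in wild type. The groups overlapped, and the log2 fold change was 0.06 (95% interval -0.20 to 0.32, edgeR adjusted p = 0.951). Col4a2, its α2 partner, stood at 26.5, 31.0 and 33.6 CPM in heterozygotes, against 30.6, 28.1 and 31.8 CPM in wild type. Its log2 fold change was 0.01 (95% interval -0.27 to 0.29). These intervals exclude a rise of more than 1.25-fold for Col4a1 and 1.23-fold for Col4a2. The head-to-head pair also kept a narrow ratio: per length, Col4a2 was 1.18 to 1.43 times Col4a1 in each of the 6 libraries.

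The minor collagen IV chains were lower per length, with 0.273 ± 0.0793 FPKM for Col4a5 and 0.106 ± 0.0192 FPKM for Col4a6 in WT. Col4a5, the X-linked α5 chain, stood at 1.97, 4.50 and 2.20 CPM in heterozygotes, against 1.49, 2.81 and 2.49 CPM in wild type. Its neighbour Col4a6 stood at 0.884, 0.977 and 0.385 CPM against 0.994, 0.957 and 0.695 CPM. Neither pair of groups separated (log2 fold changes 0.33, SE 0.38, and -0.24, SE 0.45). Col4a3 and Col4a4, chains of the kidney glomerular basement membrane, were too low to test, and their counts are small. Col4a3 had 32 heterozygous and 19 wild type counts, and Col4a4 had 28 in each group.

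The 2 basement membrane collagens outside collagen IV differed in sign. Col15a1, the core protein of a proteoglycan of vessel basement membranes, stood at 6.05, 3.71 and 3.74 CPM in heterozygotes, against 3.39, 2.21 and 4.28 CPM in wild type. Ash1l het replicate 1 was highest and the groups overlapped (log2 fold change 0.44, SE 0.31, edgeR adjusted p = 0.893). Col18a1, whose C-terminal fragment is endostatin, stood at 2.18, 2.48 and 1.98 CPM in heterozygotes, against 2.57, 2.99 and 3.30 CPM in wild type. Every Ash1l het library was below every WT library in CPM, yet the change did not pass (log2 fold change -0.42, SE 0.25, edgeR adjusted p = 0.887). In FPKM the groups overlapped, with Ash1l het replicate 2 at 0.235 and WT replicate 1 at 0.229. Over the 6 tested members of this class, 4 had a positive and 2 a negative log2 fold change, with a median of 0.036, which went to -0.070 without Ash1l het replicate 2.

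Markers of vessel cells are given beside this class because collagen IV is made there. Of 11 endothelial markers, 9 had a positive log2 fold change (median 0.22). Of these, 3 were higher at an unadjusted p under 0.05 (Abcb1a, Pecam1 and Ly6c1), against 3.1% of all genes, and 0 passed. The 2 negative markers were Tie1 (log2 fold change -0.44, SE 0.20) and Emcn (-0.11, SE 0.19). The summed level of the endothelial markers was 277 to 351 CPM in heterozygotes and 239 to 295 CPM in WT, and no marker was at 0. Of 10 mural cell markers 6 were positive, 0 passed, and sums of 228 to 275 CPM in Ash1l het overlapped 210 to 247 CPM in WT. The part of vessel cell content in the collagen values was not tested. Of 5 blood cell markers 5 were higher in Ash1l het at an unadjusted p under 0.05, against 3.1% of all genes, 0 passed, and their sum was 56.1 to 123 CPM in heterozygotes and 23.0 to 35.4 CPM in WT. The part of blood content was not tested either.

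**Figure D3:**
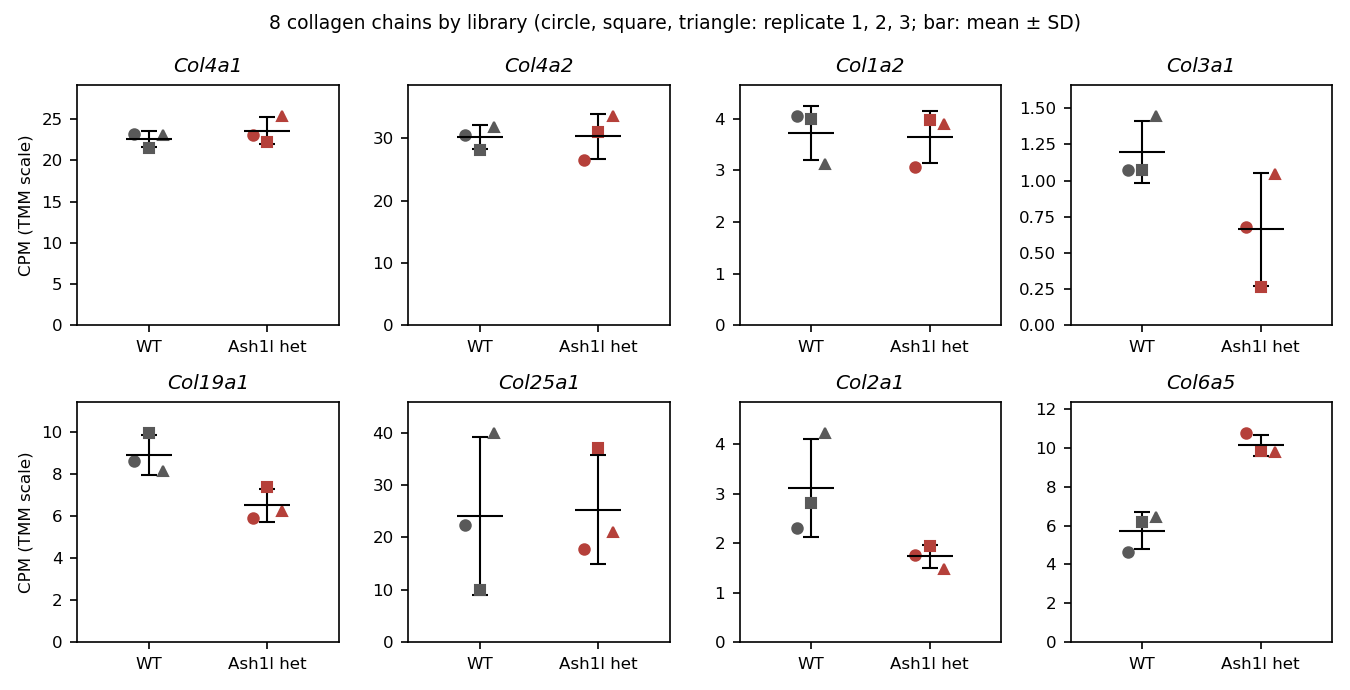
CPM on the TMM scale of 8 collagen chains in each library, with the mean and SD of 3 libraries per genotype. Col4a1, Col4a2 and Col1a2 overlap between genotypes, Col6a5 is higher and Col19a1, Col2a1 and Col3a1 are lower in all Ash1l het libraries, and Col25a1 spreads widely within each genotype.

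Fibrillar collagens I, III and V were low, and 5 of 6 had negative log2 fold changes (median -0.25) with 0 passing. Without WT replicate 2 the median was -0.012. Col1a1 and Col1a2, the chains of collagen I, stood close to WT. Col1a1 was at 2.58, 1.498 and 3.19 CPM in heterozygotes, against 2.15, 3.29 and 2.61 CPM in wild type. Col1a2 was at 3.06, 3.97 and 3.90 CPM against 4.06, 4.01 and 3.13 CPM. Both overlapped in part, each with 1 Ash1l het library below the WT range, with log2 fold changes of -0.15 (SE 0.33) and -0.03 (SE 0.23). Col3a1, the fibrillar collagen of vessel walls, stood at 0.680, 0.261 and 1.05 CPM in heterozygotes, against 1.08, 1.08 and 1.45 CPM in wild type. Its highest Ash1l het library came just under the lowest WT library, and it rests on 33 counts against 56 (log2 fold change -0.84, SE 0.48, edgeR adjusted p = 0.886).

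Collagen V takes part in setting fibril diameter, and its 3 chains overlapped between genotypes. Col5a1 stood at 1.63, 1.69 and 0.880 CPM in heterozygotes, against 1.16, 2.87 and 1.68 CPM in wild type. Col5a2 stood at 2.58, 3.13 and 1.87 CPM against 3.23, 2.75 and 3.65 CPM. Col5a3 stood at 1.09, 3.58 and 3.13 CPM against 4.06, 2.39 and 1.16 CPM, and its spread within each genotype was nearly as wide as over both. Log2 fold changes were -0.47 (SE 0.42), -0.35 (SE 0.27) and 0.07 (SE 0.53). Of 10 tested markers of meningeal and perivascular fibroblasts, the cells that make most fibrillar collagen, 3 were positive and 7 negative (median -0.13) and 0 passed. All 12 listed markers, tested or not, summed to 117 to 285 CPM in heterozygotes and 145 to 176 CPM in WT. Most of this sum was Ptgds. Dcn, which encodes the fibril-binding proteoglycan decorin, stood at 8.25 ± 2.047 CPM in heterozygotes and 8.38 ± 0.379 CPM in WT. The part of fibroblast content in these values was not tested.

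The neuronal class held 2 chains, and whether their changes differ was not tested. Col19a1 (ENSMUSG00000026141; chromosome 1, 24261890 to 24587472, minus strand) encodes the chain of collagen XIX, a non-fibrillar collagen made by subsets of interneurons with a role in synapse formation. It stood at 5.92, 7.36 and 6.21 CPM in heterozygotes, against 8.61, 9.92 and 8.11 CPM in wild type. All Ash1l het libraries lay below all WT libraries, with a log2 fold change of -0.45 (SE 0.17, 95% interval -0.84 to -0.06, unadjusted p = 0.0282, edgeR adjusted p = 0.857). Leaving out single libraries moved this value between -0.55 and -0.36, and the unadjusted p was then 0.05 or more in 4 of 6 cases (0.0150 to 0.116). On both FPKM scales it was also above 0.05 (0.0741 and 0.0749). Of 10 spiny projection neuron markers, 8 had a negative log2 fold change (median -0.15), and at an unadjusted p under 0.05 there was 1 higher and 2 lower, against 3.1% and 2.67% of all genes. Their sums overlapped, at 7356 to 9074 CPM in Ash1l het and 7809 to 8917 CPM in WT, and no marker was at 0. These are markers of spiny projection neurons, not of interneurons, for which no marker list was examined. The part of neuron content in the Col19a1 value was not tested.

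Col25a1 encodes a transmembrane collagen of neurons, whose shed ectodomain binds amyloid. It stood at 17.8, 37.1 and 21 CPM in heterozygotes, against 22.4, 9.92 and 39.9 CPM in wild type. Its coefficient of variation within WT was 62.5%, against 10.6% for Col19a1, and the lowest and highest of the 6 libraries were both WT. The log2 fold change was 0.07 (95% interval -1.30 to 1.44), and a 2-fold change in either direction lies inside it. The chain had 1126 counts in WT and 1213 in Ash1l het.

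Among the 5 other fibrillar chains, 2 were positive and 3 negative, and Col2a1 had the largest fitted change. Col2a1 (ENSMUSG00000022483; chromosome 15, 97975602 to 98004695, minus strand), the chain of the cartilage collagen II, stood at 1.77, 1.96 and 1.48 CPM in heterozygotes, against 2.32, 2.81 and 4.23 CPM in wild type. All Ash1l het libraries lay below all WT libraries, with a log2 fold change of -0.86 (SE 0.30, 95% interval -1.54 to -0.17, unadjusted p = 0.0197, edgeR adjusted p = 0.857). WT replicate 3 was the highest library, and without it the value was -0.57 (unadjusted p = 0.111). The unadjusted p was 0.05 or more in 2 of 6 such cases and on both FPKM scales (0.0711 and 0.0719). Counts were 83 in Ash1l het and 148 in WT.

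The collagen XI and related chains showed no such separation. Col11a1 stood at 6.32, 6.97 and 9.35 CPM in heterozygotes, against 6.46, 5.74 and 5.04 CPM in wild type, with a single Ash1l het library inside the WT range (log2 fold change 0.40, SE 0.21). Col24a1 stood at 1.90, 0.977 and 2.36 CPM against 0.828, 1.38 and 1.22 CPM (log2 fold change 0.60, SE 0.40). Col11a2, the more abundant collagen XI chain, ranged from 15.4 to 34.9 CPM in heterozygotes and from 23.8 to 32.2 CPM in WT. Col27a1 had a log2 fold change of -0.0025 (SE 0.25).

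Collagen VI held both the most abundant chain and the smallest p-value of all members, and 4 of its 5 tested chains were positive (median 0.06, and -0.035 without Ash1l het replicate 1). Col6a5 (ENSMUSG00000091345; chromosome 9, 105856078 to 105960643 in GENCODE M21, minus strand) encodes the α5 chain, a relative of α3 that can take its place beside α1 and α2. It stood at 10.7, 9.84 and 9.79 CPM in heterozygotes, against 4.64, 6.16 and 6.43 CPM in wild type. The lowest Ash1l het library was above the highest WT library, with a log2 fold change of 0.81 (SE 0.18, 95% interval 0.41 to 1.21). The unadjusted p was 0.00132 and the edgeR quasi-likelihood adjusted p 0.690. By the exact test of edgeR its adjusted p was 0.0478 and by DESeq2 0.0965. Leaving out any 1 library kept the log2 fold change between 0.68 and 0.90. The deposited locus of Col6a5 differed from that in GENCODE M21, as did that of Col20a1, whereas 42 members had the same locus. Coordinates, gaps and shared words of Col6a5 are given from GENCODE M21, which may differ from the counted gene model.

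Col6a5 counts could in part belong to its neighbour. Of the 50-base words in the GENCODE M21 transcripts of Col6a5, 3.42% also occur in another gene, mostly Col6a6, the adjacent α6 chain gene. Under 1% of words were so shared in 41 of the 44 members. Col6a6 was too low to test, with 6, 7 and 7 counts in the heterozygous libraries and 3, 4 and 15 in wild type, where Col6a5 had 487 and 270 counts in the same groups. The other neighbour, Col6a4, a mouse α4 chain, stood at 21.1, 14.5 and 20.3 CPM in heterozygotes, against 18.0, 12.02 and 23.6 CPM in wild type and overlapped (log2 fold change 0.06, SE 0.25).

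The partners with which α5 would assemble did not separate by genotype. Col6a1 stood at 112, 90.3 and 100.3 CPM in heterozygotes, against 91.8, 92.5 and 89.2 CPM in wild type, a log2 fold change of 0.15 (SE 0.11, 95% interval -0.09 to 0.39). Col6a2 had a log2 fold change of 0.01 (SE 0.16). Col6a3, their usual partner, stood at 4.01, 2.61 and 1.65 CPM in heterozygotes, against 4.31, 3.29 and 2.66 CPM in wild type (log2 fold change -0.31, SE 0.35). Per length, α5 exceeded α3 in all 6 libraries, by 3.47, 4.90 and 7.70 times in Ash1l het and by 1.40, 2.43 and 3.13 times in WT. Col6a4 per length exceeded Col6a3 by 5.32 to 17.9 times, and Col6a1 exceeded Col6a2 by 8.04 to 10.9 times. The last ratio depends on implied lengths of 4530 bases for Col6a1 and 8440 for Col6a2, whose coding sequences hold 1025 and 1034 codons. Over all libraries Col6a1 had 9059 counts and Col6a2 had 1737.

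Fibril-associated collagens, which decorate fibrils or link them to other matrix, gave 4 positive and 2 negative values among 6 tested (median 0.25, and -0.048 without Ash1l het replicate 2). Col16a1 stood at 6.73, 17.2 and 7.42 CPM in heterozygotes, against 7.37, 6.82 and 8.22 CPM in wild type. Only Ash1l het replicate 2 was high, and without it the log2 fold change went from 0.48 to -0.08. Col14a1 stood at 1.16, 1.17 and 1.65 CPM against 0.828, 1.55 and 0.637 CPM. Col9a2 stood at 1.84, 4.04 and 2.91 CPM against 3.23, 2.03 and 2.08 CPM. Col9a3 (0.23, SE 0.36), Col12a1 (-0.22, SE 0.50) and Col20a1 (-0.14, SE 0.27) had log2 fold changes below their SE. In GENCODE M21, whose locus for this gene differs from the deposited one, Col20a1 shares 79 exonic bases with a sense-overlapping model. That model had 953 counts, against 311 for Col20a1, so the counts of Col20a1 are uncertain.

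The remaining chains were network-forming, anchoring, membrane-spanning or of other kinds, and 2 of the 5 tested were positive. Col26a1 stood at 2.18, 2.87 and 2.58 CPM in heterozygotes, against 3.97, 3.17 and 2.20 CPM in wild type. Col23a1, a transmembrane collagen, stood at 4.69, 3.71 and 4.78 CPM against 5.13, 4.19 and 5.67 CPM. Col8a2, a short-chain collagen of Descemet's membrane, stood at 1.496, 2.09 and 1.48 CPM against 1.74, 1.61 and 1.10 CPM. All 3 overlapped between genotypes, as did Col7a1, the anchoring fibril collagen (0.20, SE 0.37), and Col17a1 (-0.12, SE 0.37).

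The other untested chains were near the limit of detection. Col8a1 had 34 heterozygous and 28 wild type counts, Col13a1 had 12 and 31, Col9a1 13 and 9, Col28a1 10 and 12, and Col22a1 7 in each. Col10a1, the hypertrophic cartilage collagen, had 2 counts in Ash1l het replicate 2 and 0 elsewhere. The 0 counts in WT allow up to 0.0641 CPM (3 counts over the group, unscaled, counting error only).

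Genes that make, bind or cut collagen were examined from 6 lists with 92 genes, of which 80 were tested and 0 passed. Of the 80, 38 had positive and 42 negative log2 fold changes (median -0.02), with 7 higher and 4 lower at an unadjusted p under 0.05, where 3.1% of all genes tested were higher and 2.67% lower. In the list of chain modification and folding, 2 were higher and 1 lower at that level among 20 tested, beside the same 3.1% and 2.67% of all genes. Crtap, a subunit of the prolyl 3-hydroxylase complex, stood at 3.97 ± 0.134 CPM in heterozygotes and 2.44 ± 0.416 CPM in wild type (log2 fold change 0.71, SE 0.23, edgeR adjusted p = 0.825). Plod2, a lysyl hydroxylase, had a value of 0.53 (SE 0.22) and P4ha1, a catalytic subunit of prolyl 4-hydroxylase, -0.26 (SE 0.11). For all 3 the genotypes did not overlap, which held with Ash1l het above for 6.18% and below for 5.53% of all genes.

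**Figure D4:**
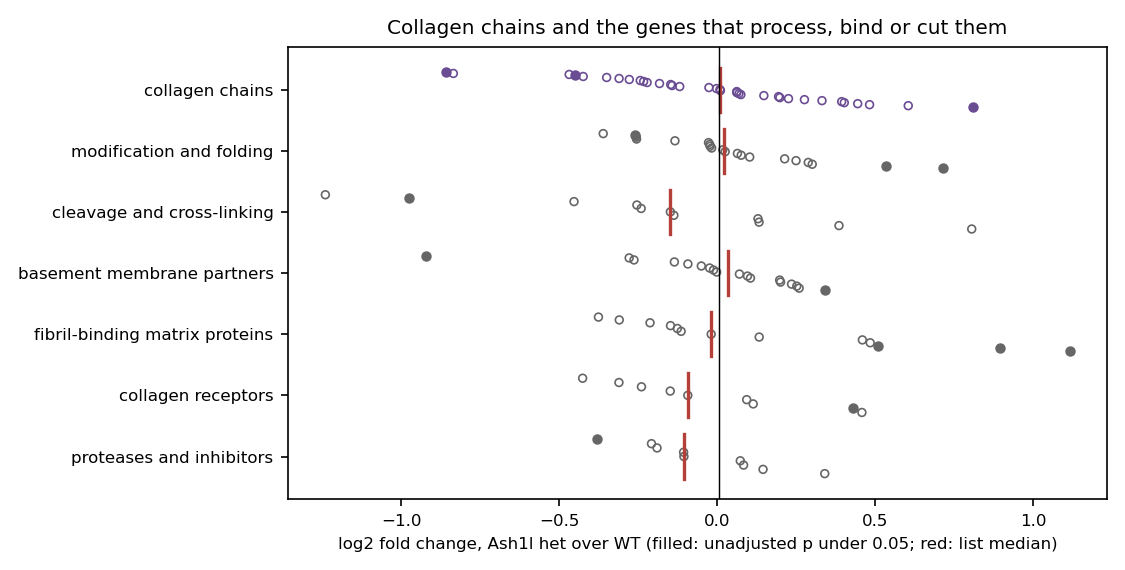
Log2 fold change of Ash1l het over WT for the 35 tested collagen chains and 80 tested genes of 6 related lists; filled points have an unadjusted p under 0.05, red bars are list medians and the black line is the median of all genes. The medians lie between -0.15 and 0.03.

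Among 11 tested genes of propeptide cleavage and cross-linking, 1 was lower at an unadjusted p under 0.05, against 2.67% of all genes. This was Adamts2, the protease that removes the N-propeptide of fibrillar procollagens, at 3.74, 3.71 and 3.96 CPM in heterozygotes and 4.64, 8.01 and 9.67 CPM in WT. All Ash1l het libraries were lower (log2 fold change -0.98, SE 0.27, edgeR adjusted p = 0.741). Loxl1, a lysyl oxidase relative, and Adamts3 had values of -0.45 (SE 0.29) and -0.24 (SE 0.16). Among 18 basement membrane partners, 1 was higher and 1 lower at that level, against 3.1% and 2.67% of all genes. Lamb3, the β3 chain of laminin-332, stood at 1.92 ± 0.0767 CPM in heterozygotes and 3.67 ± 0.772 CPM in wild type (log2 fold change -0.92, SE 0.25, edgeR adjusted p = 0.758). Sparc, a secreted collagen IV-binding protein, had a value of 0.34 (SE 0.13), with 1 Ash1l het library inside the WT range. Lama5, the laminin α5 chain, had 0.25 (SE 0.14).

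Matrix proteins that bind fibrils gave 3 higher at an unadjusted p under 0.05 of 13 tested, against 3.1% of all genes. Fn1, which encodes fibronectin, stood at 63.6, 43.8 and 71.7 CPM in heterozygotes, against 41.4, 43.2 and 41.3 CPM in wild type (log2 fold change 0.51, SE 0.17, edgeR adjusted p = 0.834). Ash1l het replicate 2 was only slightly above WT. Thbs2 and Thbs1, the thrombospondins, had values of 1.12 (SE 0.46) and 0.90 (SE 0.38), and both overlapped. Of 9 tested collagen receptors, Itga1, the integrin α1 subunit that binds collagen IV, had 0.43 (SE 0.17), Mrc2, an endocytic collagen receptor, -0.43 (SE 0.19), and Itga10 0.46 (SE 0.28). Of 9 tested proteases and inhibitors, Mmp15, a membrane-type matrix metalloproteinase, had -0.38 (SE 0.14), Mmp16 0.14 (SE 0.11) and Mmp14 -0.21 (SE 0.22).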

How the data were processed

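Tissue was lysed in TRIzol and a stranded kit for mRNA was used for the libraries, per the labels' protocols. The authors deposited raw counts per gene together with FPKM. Tools named in the submitters' processing notes are HISAT2, StringTie, edgeR, CASAVA and FastQC, with build GRCm38; the sources used here give neither versions and settings nor whether counting used strand. The 6 per-sample files held the same counts as the series table. Deposited FPKM served for levels between genes, and for 99.1% of genes averaging at least 10 counts they implied a whole gene length within 0.1 base.

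Counts were tested with edgeR 4.0.16 in R 4.3.3 (quasi-likelihood, robust, TMM, default filter with minimum count 10, genotype alone), with Benjamini-Hochberg adjustment over 15267 genes and a threshold of 0.05. SE is the size of the fitted change over the root of its F statistic. The steps were tested on simulated data.

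Members, classes and lists were chosen with earlier results of these data known. All members are accounted for; values per library are given for the tested members of the basement membrane, fibrillar I, III and V and neuronal classes, and for the 3 smallest p-values of each other class, and the 3 smallest p-values of each related list are named. Col11a2, Col6a4, Dcn, Ptgds, Xist, Abcb1a, Pecam1, Ly6c1, Tie1 and Emcn were detailed after their values were seen. Alternatives were DESeq2 1.42.0, the exact test of edgeR, limma-voom (limma 3.58.1), RLE scaling, no filter, a replicate block, a filter of 1 CPM in 3 libraries, limma on FPKM after log2 with a pseudocount of 0.1 or 1 (genes averaging at least 0.1 FPKM), and leaving out each library. Sequence features come from 1 GENCODE M21 coding transcript per member, counting runs of at least 3 glycine-led triplets.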

Additional observations from a re-analysis of the deposited data

How the results depend on the processing

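No member was called under any alternative, with the exception of Col6a5 in the exact test of edgeR, which called 1 member. Over the whole table, DESeq2 called 39 genes and the exact test 41, against 2, and single left-out libraries gave 1 to 13. Members with an unadjusted p under 0.05 numbered 3, but 1 with limma on log2(FPKM + 0.1) and 1 on log2(FPKM + 1), and 2 to 6 with single libraries left out. With limma on log2(FPKM + 0.1) the basement membrane median was 0.096, and on log2(FPKM + 1) that of fibrillar collagens I, III and V was -0.033. Both medians covered fewer members than the main fit. Col4a6 (mean 0.0995 FPKM) and Col3a1 (mean 0.0858 FPKM) fell below the 0.1 FPKM minimum of these fits. A pseudocount also shrinks fold changes at low FPKM, so these medians are not like for like with the main ones. Log2 fold changes near 0 changed sign for Col1a2 (0.0055 and 0.0017 on the 2 FPKM scales), Col27a1 (0.0072 on log2(FPKM + 1)) and Col6a2 (-0.0063 with limma-voom); the cause was not tested.

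With single libraries left out, the medians ran from -0.070 to 0.087 for basement membrane collagens, from -0.035 to 0.21 for collagen VI chains, from -0.048 to 0.39 for fibril-associated collagens, from -0.34 to -0.012 for fibrillar collagens I, III and V, from -0.25 to 0.21 for other fibrillar collagens, from -0.43 to 0.069 for neuronal collagens, from -0.25 to 0.016 for network and other collagens and from -0.078 to 0.066 for all members. Values that changed sign when 1 library was left out ran from -0.57 to 0.0081 for Col11a2, from -0.77 to 0.16 for Col12a1, from -0.078 to 0.71 for Col16a1, from -0.33 to 0.15 for Col17a1, from -0.41 to 0.099 for Col1a1, from -0.14 to 0.082 for Col1a2, from -0.39 to 0.066 for Col20a1, from -0.32 to 0.65 for Col25a1, from -0.25 to 0.21 for Col27a1, from -0.072 to 0.098 for Col4a2, from -0.13 to 0.53 for Col4a5, from -0.49 to 0.087 for Col4a6, from -0.29 to 0.56 for Col5a3, from -0.11 to 0.11 for Col6a2, from -0.16 to 0.32 for Col6a4, from -0.088 to 0.45 for Col7a1, from -0.017 to 0.52 for Col9a2, from -0.26 to 0.53 for Col9a3 and from -0.36 to 0.016 for Mmp14. Over all alternatives, 17 tested members kept their sign and 18 did not; of the 18, only Col16a1 had a value larger than its SE. Fitting the replicate number as a block called 3 genes and 0 members. No pairing by replicate number was seen. Same-numbered libraries had correlations of deviations of 0.0556, -0.0753 and 0.0107, and not every library correlated best with its own number. The deviations sum to 0 within each group of 3 libraries, so this check is weak and cannot exclude a pairing.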
